A study of Mus musculus with 12 samples.

Results

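The lysosomal genes described here are 36 genes named by symbol, 36 of the 24318 genes in the deposited expression table. They comprise 15 genes of the vacuolar proton pump (V-ATPase), 8 cathepsins, 5 glycosidases, 5 proteins of the lysosomal membrane and 3 genes of cholesterol export and lipid degradation. RNA came from immortalized mouse embryonic fibroblasts with the genotype MafF-/-::MafG-/-::MafK-/-, so cells of every group lack the small Maf proteins with which the stress-responsive factor Nrf2 pairs to bind DNA. The 4 groups of 3 libraries each were T-N2G cells given 100 µM diethyl maleate (DEM) for 12 h, T-N2G cells given vehicle, mock cells given DEM and mock cells given vehicle. T-N2G is Nrf2 joined to MafG by a tether, a heterodimer that does not depend on endogenous small Mafs. DEM is an electrophile that binds glutathione. The labels do not give the promoter that drives T-N2G, whether the cells are 1 clone, or whether replicates were separate cultures, so p-values measure the spread between these libraries, which may be technical. The labels also do not say what the replicate numbers stand for.

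Lysosomes are acidic compartments in which hydrolases break down proteins, glycans and lipids that arrive by endocytosis and autophagy. The V-ATPase pumps protons into them through a membrane sector, V0, driven by ATP hydrolysis in a cytosolic sector, V1. Many lysosomal genes carry the palindrome CACGTG, the E-box, near their start, and the core TCACGTG of the CLEAR element contains it. TFEB, TFE3 and MITF bind such elements and are known as activators of lysosomal genes in many cell types. Nrf2 with a small Maf binds the antioxidant response element, whose core is TGACNNNGC.

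Promoter sequence was available for 30 of the 36 genes, from RefSeq on build GRCm38.p6, as windows from 250 bases before to 50 bases after the annotated start. Npc1, Atp6v1g1, Ctsb, Atp6v1h, Atp6v1b2 and Atp6v1c1 had no entry. The E-box CACGTG, searched on both strands, lay in the windows of 13 of these 30 genes (43.3%), against 8.09% of all 27025 genes with a window and 11.9% of the 9479 genes with a window that were also tested for expression. The CLEAR core TCACGTG, which overlaps the E-box by construction, lay in 11 of the 30 (36.7%), against 4.29% of all genes and 7.03% of those tested. The antioxidant response element core TGACNNNGC lay in 7 of the 30 (23.3%), against 14.0% and 17.1%. These are matches of letters within a fixed window, and expressed genes held all 3 motifs more often than genes at large. Below are 5 stretches of 100 bases that lie before the annotated start, each written 5′ to 3′ on the strand of its gene with CACGTG in capitals. The first 4 were chosen because their genes were higher under DEM in T-N2G cells, and Lamp1 is shown because it had 4 E-boxes before its start. They lie at chr4:117887330-117887429 (Atp6v0b, minus strand), chr8:3500419-3500518 (Mcoln1, plus strand), chrX:134601147-134601246 (Gla, minus strand), chr16:44139338-44139437 (Atp6v1a, minus strand) and chr8:13159061-13159160 (Lamp1, plus strand).
Atp6v0b: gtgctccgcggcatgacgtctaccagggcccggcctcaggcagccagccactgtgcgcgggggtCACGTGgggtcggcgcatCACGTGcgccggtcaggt
Mcoln1: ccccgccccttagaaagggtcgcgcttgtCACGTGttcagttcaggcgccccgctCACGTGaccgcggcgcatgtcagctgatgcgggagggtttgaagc
Gla: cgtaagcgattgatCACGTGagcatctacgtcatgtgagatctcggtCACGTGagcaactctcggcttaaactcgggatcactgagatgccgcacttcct
Atp6v1a: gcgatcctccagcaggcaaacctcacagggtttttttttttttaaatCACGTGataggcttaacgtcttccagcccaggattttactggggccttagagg
Lamp1: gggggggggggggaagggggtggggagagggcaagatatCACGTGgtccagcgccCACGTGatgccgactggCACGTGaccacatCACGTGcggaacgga

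The other E-box genes were Atp6v0d1, Atp6v0e, Ctsa, Ctsd, Ctsf, Ctsl, Gaa and Glb1. Among these under DEM in T-N2G cells, Atp6v0d1 was called higher, and Ctsa, Ctsd, Gaa and Glb1 only with the replicate block described below. Atp6v0e and Ctsl were not called, and Ctsf was called lower with the block. Atp6v0a1 was called higher and had no E-box in its window. A link between the E-box and these changes was not tested. The antioxidant response element core was found for Atp6v0a1, Atp6v1a, Ctsd, Ctsz, Hexa, Scarb2 and Psap. The 4 stretches of 60 bases that follow hold it in capitals, on either strand. They are shown because, with the block, their genes were called higher when T-N2G was set over mock cells under DEM. Atp6v0a1, Atp6v1a and Hexa were not called there. Among the other genes called higher there, Gla, Lamp2, Npc2, Ctsl, Gaa and Neu1 had windows without the core, and Atp6v1c1 had no window. Whether the core has a part in these calls was not tested. The 4 stretches lie at chr7:142387840-142387899 (Ctsd, minus strand), chr5:92505722-92505781 (Scarb2, minus strand), chr2:174439137-174439196 (Ctsz, minus strand) and chr10:60277568-60277627 (Psap, plus strand).
Ctsd: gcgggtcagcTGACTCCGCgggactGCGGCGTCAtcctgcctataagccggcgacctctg
Scarb2: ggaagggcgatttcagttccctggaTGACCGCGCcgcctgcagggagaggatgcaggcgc
Ctsz: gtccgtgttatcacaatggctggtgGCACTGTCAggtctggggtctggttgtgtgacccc
Psap: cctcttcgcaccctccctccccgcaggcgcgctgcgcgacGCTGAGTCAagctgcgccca

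Libraries held 18863560 to 23095692 fragments, and the 36 genes took 0.493% to 0.676% of them. In vehicle, Mafg was 264-fold and Nfe2l2, which encodes Nrf2, 11.3-fold above mock cells in the T-N2G cells. Under DEM the folds were 138 and 8.90. These fragments do not separate the transgene from the endogenous genes. The Nrf2 target Nqo1 was 17.5-fold higher in T-N2G cells under DEM and 4.03-fold higher in vehicle. All 10 fibroblast markers averaged at least 1 FPKM. Macrophages and osteoclasts are cell types rich in lysosomes, and the macrophage markers Adgre1, Ptprc and Csf1r averaged 0, 0.0031 and 0.048 FPKM over the 12 libraries. Of 7 macrophage markers, Cd14 (2.81 FPKM) and Cd68 (1.60 FPKM) reached 1 FPKM. Of 5 osteoclast markers, Itgb3 alone did so, at 1.02 FPKM. It averaged 0.81 FPKM in T-N2G DEM, 0.73 in T-N2G vehicle, 1.39 in mock DEM and 1.14 in mock vehicle. The summed macrophage markers ran from 3.36 to 4.54 FPKM in T-N2G DEM, 4.15 to 4.997 in T-N2G vehicle, 4.33 to 4.55 in mock DEM and 4.38 to 5.39 in mock vehicle. The summed fibroblast markers ran from 3621 to 4189 FPKM in T-N2G DEM and 4332 to 4993 FPKM in T-N2G vehicle, against 4229 to 4773 FPKM in mock DEM and 4498 to 4972 FPKM in mock vehicle, so the 3 T-N2G DEM libraries were the lowest. Not every marker followed the sum. Thy1 averaged 391 FPKM in T-N2G DEM, 359 in T-N2G vehicle, 373 in mock DEM and 341 in mock vehicle. The part of these shifts in the results was not tested, and in bulk RNA fewer cells of a type and less RNA per cell cannot be told apart.

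Levels are compared between genes as FPKM, fragments scaled to transcript length and library size, and averaged over the 12 libraries. The most abundant gene was Cd63, a tetraspanin of late endosomes and lysosomes, at 517 ± 85.7 FPKM in T-N2G DEM, 462 ± 63.9 in T-N2G vehicle, 518 ± 69.3 in mock DEM and 466 ± 63.3 in mock vehicle (SD, n = 3 each). It was followed in mean FPKM by Psap (374), the precursor of the saposins that help hydrolases reach their lipids, and Lamp1 (310), a heavily glycosylated protein of the limiting membrane. These were 3 of 9 genes at 100 FPKM or more. A further 22 lay between 10 and 100 FPKM, and Gla (7.97), Neu1 (6.01) and Ctsf (3.81) lay below 10. Ctsk and Ctss, cysteine cathepsins typical of osteoclasts and of antigen-presenting cells, were close to absent. Ctsk had 2 fragments over all 12 libraries and at most 0.0353 FPKM in any, and Ctss had 3 fragments and at most 0.043 FPKM. Both were removed by the filter on low counts, so 34 of the 36 genes were tested.

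Within the V0 sector, Atp6v0c, the proteolipid that forms most of the proton-carrying ring, was the highest at a mean of 262 FPKM, and Atp6v0a1, a subunit of the proton channel, the lowest at 18.5 FPKM. In the V1 sector the range ran from Atp6v1g1, a subunit of the peripheral stalk, at 166 FPKM to Atp6v1h, which regulates ATP hydrolysis, at 24.9 FPKM. Atp6v1a and Atp6v1b2, the subunits that form the ATP-hydrolysing head, had similar means of 30.2 and 30.3 FPKM. The accessory proteins Atp6ap1 and Atp6ap2 averaged 131 and 51.1 FPKM. Ctsd, the aspartic protease of lysosomes, was the most abundant cathepsin at 228 FPKM. Hexa, the alpha subunit of beta-hexosaminidase, led the glycosidases at 79.3 FPKM, and Neu1, which removes sialic acid, had the least. The calcium channel Mcoln1 was the lowest membrane protein at 18.995 FPKM, and the cholesterol exporter Npc1 the lowest of the cholesterol and lipid genes at 15.6 FPKM.

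**Figure D1:**
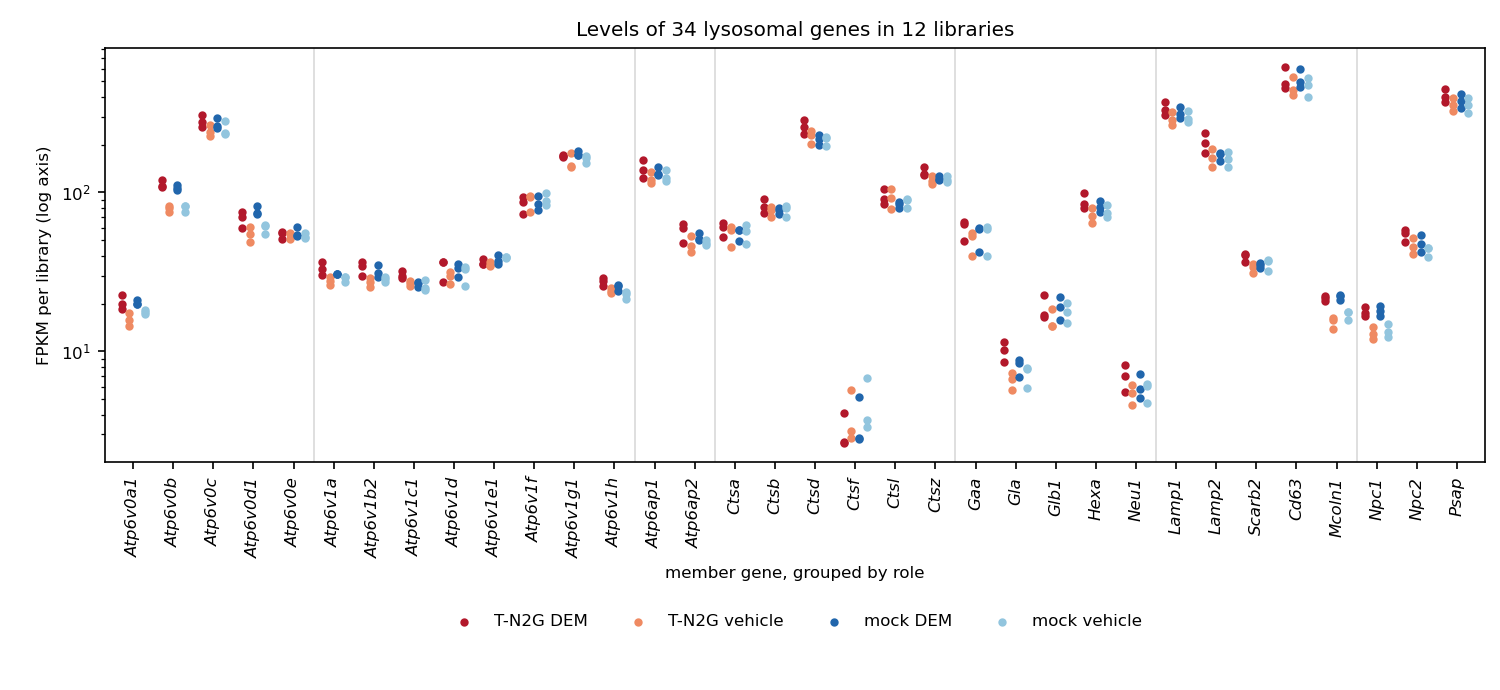
FPKM of the 34 tested genes in each of the 12 libraries on a log axis, with 1 point per library coloured by group and grey lines between role groups (V0, V1, accessory, cathepsins, glycosidases, membrane proteins, cholesterol and lipid genes). The 4 groups of a gene lie close together beside the spread between genes, whose means run from 3.81 FPKM (Ctsf) to 491.0 FPKM (Cd63).

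Changes within a gene are given as CPM, fragments scaled to a common effective library size. A gene was called when its Benjamini-Hochberg adjusted p over the 12469 tested genes was under 0.05 in edgeR's quasi-likelihood test, fitted to all 12 libraries. Libraries with the same replicate number deviated together from their group means. For 19 of the 34 genes replicate 1 was the lowest library in all 4 groups, and for 13 genes replicate 3 was the highest in all 4. A second fit that takes the replicate number as a block therefore stands beside the fit without it wherever the 2 differ. Log2 fold changes written with an SE come from the fit without the block, also where an adjusted p with the block stands beside them. The largest called effect among the 34 genes was 1.52-fold.

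The first comparison asked what DEM did in cells that contain the tethered heterodimer. Here 8 of the 34 genes rose and none was called lower, against 10.1% of all tested genes called higher and 7.55% called lower. They were 3 V0 subunits, 2 V1 subunits, Gla, Mcoln1 and Npc1. With the replicate block 29 of 34 genes rose and 1, Ctsf, fell, against 22.8% and 22.2% of all genes. The median log2 fold change was 0.21 over the 34 genes and -0.0048 over all genes tested, and 32 of the 34 values were positive. Leaving out 1 library gave medians of 0.15 to 0.28 and 30 to 33 positive values. The 3 libraries given DEM lay above all 3 vehicle libraries for 12 of the 34 genes, against 18.2% of all genes. All 3 same-numbered pairs were higher under DEM for 29 of the 34, against 33.7% of all genes.

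Atp6v0b, a proteolipid of the proton-carrying ring, had 85.9, 87.5 and 94.7 CPM in T-N2G DEM and 60.1, 64.2 and 65.4 CPM in T-N2G vehicle. The lowest DEM library stood well above the highest vehicle library. Its log2 fold change was 0.50 ± 0.06 (SE, 1.41-fold, adjusted p = 0.000408), the smallest adjusted p of the 34 genes. Mcoln1, which releases calcium from the lysosome, had 38.0, 40.6 and 39.2 CPM in T-N2G DEM and 25.2, 29.7 and 28.7 CPM in T-N2G vehicle. The groups did not overlap, and the log2 fold change was 0.49 ± 0.08 (1.41-fold, adjusted p = 0.00148). Npc1 had 85.3, 97.1 and 88.4 CPM in T-N2G DEM and 60.3, 73.0 and 64.7 CPM in T-N2G vehicle, again without overlap. It rose by 0.45 ± 0.09 on the log2 scale (1.37-fold, adjusted p = 0.00742). These 3 genes were called whichever single library was left out.

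Gla, alpha-galactosidase A, had the largest change, with 24.4, 29.4 and 32.5 CPM in T-N2G DEM and 16.3, 21.1 and 19.2 CPM in T-N2G vehicle. The groups did not overlap, and the log2 fold change was 0.61 ± 0.15 (1.52-fold, adjusted p = 0.0160). The call was lost without T-N2G DEM replicate 3 or T-N2G vehicle replicate 1. Atp6v0a1 had 71.2, 86.4 and 76.1 CPM in T-N2G DEM and 55.0, 67.1 and 60.003 CPM in T-N2G vehicle, with replicate 2 the highest in both groups. It rose by 0.36 ± 0.09 on the log2 scale (1.28-fold, adjusted p = 0.0140), and its call was lost without T-N2G vehicle replicate 1.

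Atp6v1a, the catalytic subunit, had 115, 126 and 139 CPM in T-N2G DEM and 99.3, 106 and 110.3 CPM in T-N2G vehicle. Atp6v1b2 had 77.0, 93.4 and 88.6 CPM in T-N2G DEM and 65.4, 74.4 and 70.1 CPM in T-N2G vehicle. Neither gene's groups overlapped, and the log2 fold changes were 0.26 ± 0.07 (adjusted p = 0.0232) and 0.30 ± 0.09 (adjusted p = 0.0328). Atp6v0d1, which joins the V0 ring to the central stalk, had 85.8, 109 and 99.05 CPM in T-N2G DEM and 69.2, 86.9 and 78.0 CPM in T-N2G vehicle. Its groups overlapped, since replicate 1 under DEM lay below replicate 2 in vehicle, although each pair was higher under DEM. The log2 fold change was 0.32 ± 0.10 (adjusted p = 0.0468), and the call held in 3 of 12 fits that left out 1 library. Atp6v1a and Atp6v1b2 were each called in 8 of the 12. Both lost the call without T-N2G DEM replicate 2, T-N2G DEM replicate 3 or T-N2G vehicle replicate 1, and in addition Atp6v1a without T-N2G vehicle replicate 2 and Atp6v1b2 without T-N2G vehicle replicate 3.

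**Figure D2:**
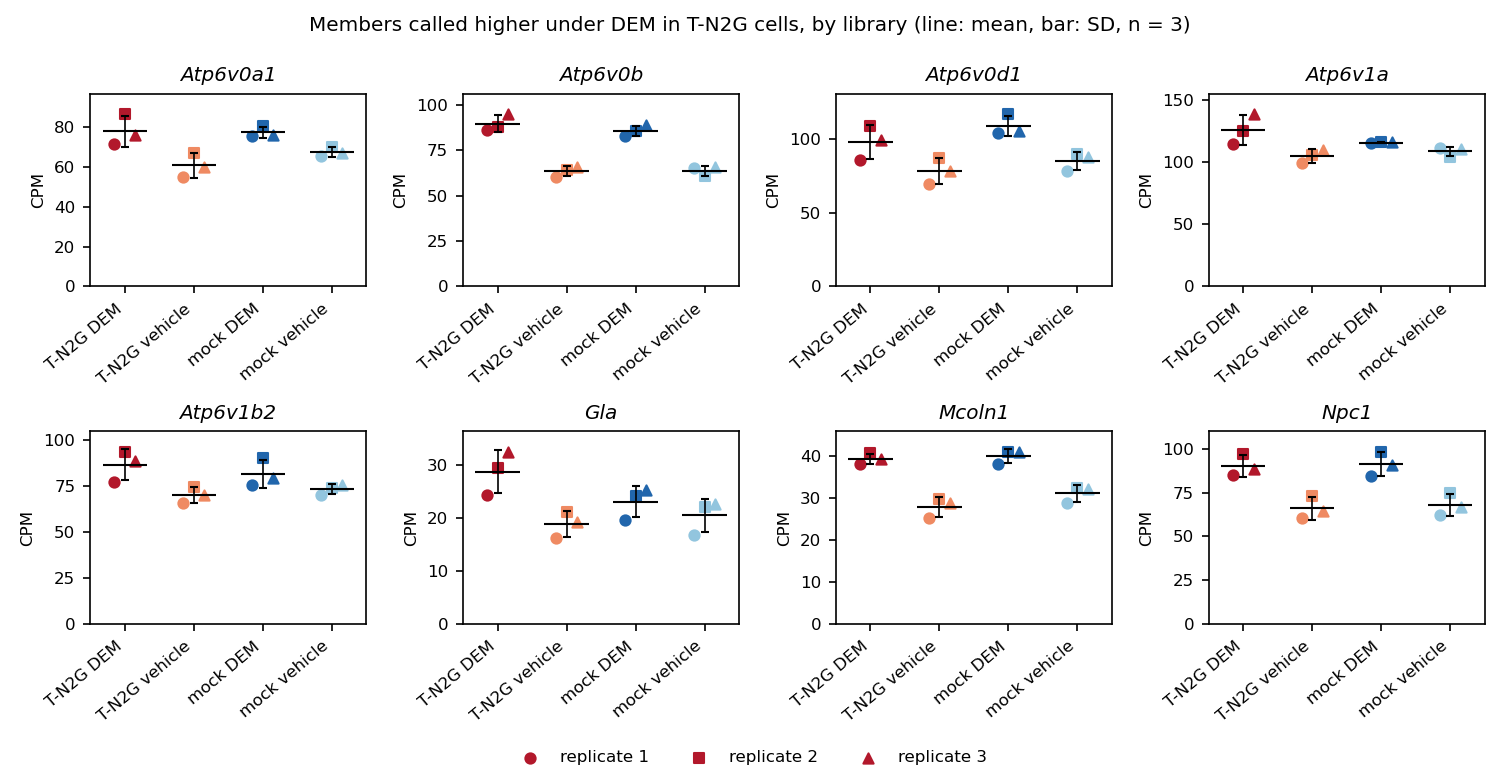
CPM by library for the 8 genes that were higher under DEM in T-N2G cells, from left to right in T-N2G DEM, T-N2G vehicle, mock DEM and mock vehicle, with the mean as a line, the SD as a bar (n = 3) and a marker shape per replicate number. Each panel starts at 0, and the DEM libraries of T-N2G cells lie above the vehicle libraries in every panel except that of Atp6v0d1, where 85.8 CPM (DEM, replicate 1) lies below 86.9 CPM (vehicle, replicate 2).

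By role, the block called higher 4 of 5 V0 genes, 6 of 8 V1 genes, both accessory genes, 4 of 6 tested cathepsins, all 5 glycosidases, all 5 membrane proteins and all 3 cholesterol and lipid genes, where the fit without it called 3, 2, 0, 0, 1, 1 and 1. Of 12 fits with the block that left out 1 library, Ctsb was called in 1, Ctsa in 5 and Atp6v1g1 in 6, the fewest among these genes. The genes called with neither fit were Atp6v0e (log2 fold change 0.01 ± 0.07), Atp6v1e1 (0.03 ± 0.07), Atp6v1f (-0.05 ± 0.12) and Ctsl (0.02 ± 0.10). Hexa shows what the block does to a value. It had 134, 142 and 166 CPM in T-N2G DEM and 108, 119.6 and 134 CPM in T-N2G vehicle, with the same order of replicates in both groups. The highest vehicle library stood just under the lowest DEM library, and each pair differed in the same direction. Its log2 fold change of 0.29 ± 0.10 had an adjusted p of 0.0722 without the block and 9.72e-06 with it (9.72e-06 to 0.269 over 34 alternatives). Ctsf, a cysteine cathepsin, had 4.86, 7.31 and 4.70 CPM in T-N2G DEM and 5.65, 10.2 and 5.11 CPM in T-N2G vehicle, so replicate 2 was the highest in both groups. Its log2 fold change was -0.31 ± 0.36, with an adjusted p of 0.584 without the block and 0.0324 with it (0.0274 to 0.928 over 34 alternatives).

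In mock cells, which have neither small Mafs nor T-N2G, the same treatment raised 4 of the 34 genes and none was called lower, against 7.76% of all genes called higher and 6.18% called lower. All 4 were also called in T-N2G cells. The block called 13 genes higher and Ctsf lower, against 20.9% and 21.9% of all genes. The median log2 fold change was 0.09 over the 34 genes and -0.012 over all genes, and 27 of the 34 values were positive. That median was 0.040 without mock vehicle replicate 1 (21 positive values), 0.14 without mock vehicle replicate 3 and 0.14 without mock DEM replicate 1 (29 positive values for each of these). The DEM libraries lay above all vehicle libraries for 9 genes, against 17.2% of all genes, and all 3 pairs were higher for 21, against 32.6%.

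Atp6v0b had 82.7, 85.3 and 88.5 CPM in mock DEM and 64.9, 60.6 and 65.4 CPM in mock vehicle, with no overlap and a log2 fold change of 0.43 ± 0.06 (1.34-fold, adjusted p = 0.00192). Mcoln1 had 37.9, 40.8 and 40.9 CPM in mock DEM and 28.7, 32.3 and 32.02 CPM in mock vehicle. Its groups were also apart, and it rose by 0.36 ± 0.08 on the log2 scale (1.29-fold, adjusted p = 0.0104). Npc1 had 84.3, 98.3 and 91.0 CPM in mock DEM and 62.2, 74.998 and 66.9 CPM in mock vehicle, a log2 fold change of 0.42 ± 0.09 (1.34-fold, adjusted p = 0.0135). Again each of these calls held whichever single library was left out.

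Atp6v0d1 had 104, 116 and 105 CPM in mock DEM and 78.3, 89.8 and 87.2 CPM in mock vehicle. Here the groups did not overlap, and the log2 fold change was 0.35 ± 0.10 (adjusted p = 0.0403), called in 4 of 12 fits that left out 1 library. It lost the call without any 1 of the 6 mock libraries, and without replicate 3 of T-N2G DEM or of T-N2G vehicle. By role, the block called higher in mock cells 4 of 5 V0 genes, 2 of 8 V1 genes, no accessory gene and no cathepsin, 2 of 5 glycosidases, 3 of 5 membrane proteins and 2 of 3 cholesterol and lipid genes. With the block and 1 library left out, Gla was called in 4 of 12 fits, and Hexa and Lamp1 in 5 each, the fewest of the 13.

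The most and least abundant genes of each role, with Lamp1 added, show how these shifts look library by library. Atp6v0c had 246, 266 and 292 CPM in T-N2G DEM and 217, 232 and 253 CPM in T-N2G vehicle, and 244, 249.5 and 279.9 CPM in mock DEM against 226, 223 and 267 CPM in mock vehicle. The groups overlapped in both kinds of cells while each pair was higher under DEM, and the log2 fold changes were 0.20 ± 0.09 in T-N2G cells and 0.11 ± 0.09 in mock cells, called in both with the block only. In the V1 sector, Atp6v1g1 had 152, 151 and 154 CPM in T-N2G DEM and 130.1, 133 and 157 CPM in T-N2G vehicle, and 154, 155 and 162 CPM in mock DEM against 147, 137 and 151 CPM in mock vehicle. Replicate 3 of T-N2G vehicle stood above all 3 DEM libraries, and the gene was called with the block in T-N2G cells (log2 fold change 0.12 ± 0.07) and not in mock cells (0.11 ± 0.07). Atp6v1h had 46.3, 49.9 and 51.5 CPM in T-N2G DEM and 44.5, 42.3 and 43.0 CPM in T-N2G vehicle, and 46.1, 46.9 and 43.0 CPM in mock DEM against 41.9, 38.6 and 40.9 CPM in mock vehicle. Its groups did not overlap in either kind of cells, and it was called in both with the block only (0.19 ± 0.06 and 0.16 ± 0.06).

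The accessory proteins help the pump assemble. Atp6ap1 had 247, 278 and 319 CPM in T-N2G DEM and 230.4, 243 and 269.8 CPM in T-N2G vehicle, and 261, 258 and 291 CPM in mock DEM against 246, 239 and 276 CPM in mock vehicle. Atp6ap2 had 106, 131 and 138 CPM in T-N2G DEM and 92.2, 102 and 116 CPM in T-N2G vehicle, and 110.4, 109 and 122 CPM in mock DEM against 104, 102 and 109 CPM in mock vehicle. Both were called with the block in T-N2G cells (log2 fold changes 0.18 ± 0.10 and 0.27 ± 0.10) and with neither fit in mock cells (0.09 ± 0.10 and 0.12 ± 0.10). Neu1 had 20.4, 30.4 and 25.7 CPM in T-N2G DEM and 17.01, 22.99 and 20.1 CPM in T-N2G vehicle, and 18.6, 26.7 and 21.2 CPM in mock DEM against 17.4, 22.5 and 22.9 CPM in mock vehicle. Replicate 1 was the lowest library of all 4 groups, and the log2 fold change was 0.35 ± 0.18 in T-N2G cells, called with the block only, and 0.08 ± 0.18 in mock cells, not called.

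Cd63 had 338, 319 and 429 CPM in T-N2G DEM and 309, 289 and 372 CPM in T-N2G vehicle, and 347, 324 and 417 CPM in mock DEM against 330.3, 280.5 and 367 CPM in mock vehicle. Lamp1 had 637, 689 and 768 CPM in T-N2G DEM and 550.2, 594 and 661 CPM in T-N2G vehicle, and 608, 643 and 713 CPM in mock DEM against 569, 600.1 and 673 CPM in mock vehicle. Both overlapped between DEM and vehicle, had every pair higher under DEM, and were called in both kinds of cells with the block only. Their log2 fold changes were 0.16 ± 0.14 and 0.21 ± 0.10 in T-N2G cells and 0.15 ± 0.14 and 0.09 ± 0.10 in mock cells. Psap had 889.7, 1080.4 and 953 CPM in T-N2G DEM and 777, 947 and 850.2 CPM in T-N2G vehicle, and 811, 996 and 907 CPM in mock DEM against 757, 947 and 856 CPM in mock vehicle. Replicate 2 was the highest in all 4 groups, and the log2 fold change of 0.18 ± 0.11 in T-N2G cells was called with the block only, where that of 0.08 ± 0.11 in mock cells was not called.

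**Figure D3:**
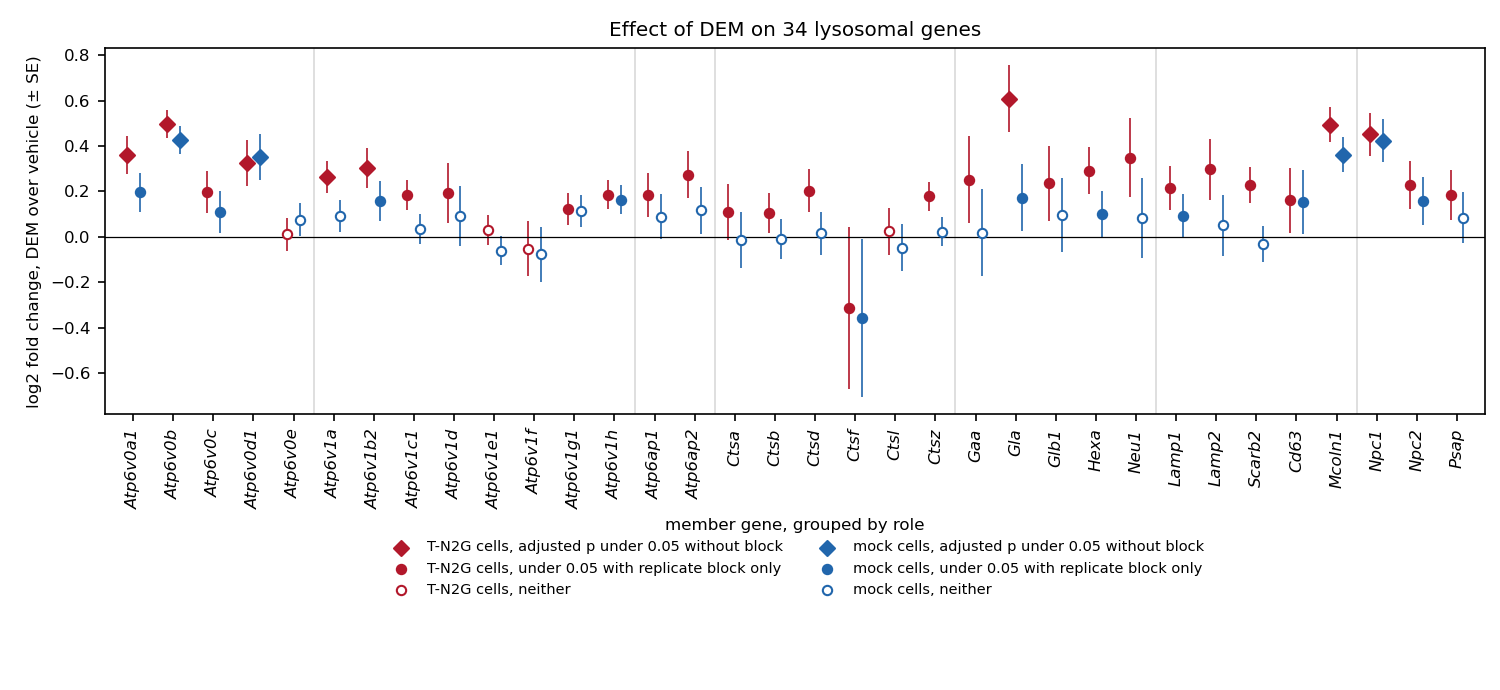
Log2 fold change of DEM over vehicle with its SE for the 34 tested genes, in T-N2G cells (red, left of each pair) and mock cells (blue), where diamonds mark genes called without the block, filled circles those called with the replicate block only and open circles the others. In T-N2G cells 32 of 34 values lie above 0 with a median of 0.21, and in mock cells 27 lie above 0 with a median of 0.09 (0.040 to 0.14 with 1 library left out).

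The log2 fold change under DEM in T-N2G cells exceeded that in mock cells for 32 of the 34 genes, by a median of 0.12, against a median of 0.00099 over all genes. The median was 0.065 without T-N2G vehicle replicate 1 and 0.071 without mock DEM replicate 1, with 26 genes higher in each, and 0.18 without T-N2G DEM replicate 1, with 33 higher. The difference of the effects was called for none of the 34 in edgeR without the block, against 0.433% of all genes. DESeq2 and limma called none either. With the block it was called for 2, Gla and Scarb2, both larger in T-N2G cells, against 1.82% of all genes called in that direction. A larger number of calls in T-N2G than in mock cells is thus not by itself a difference for a given gene.

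Gla had 19.7, 24.2 and 25.4 CPM in mock DEM and 16.8, 22.1 and 22.6 CPM in mock vehicle, groups that overlapped, where its T-N2G libraries did not. Its DEM effect was 0.61 ± 0.15 in T-N2G cells and 0.17 ± 0.15 in mock cells on the log2 scale. The difference was 0.44 ± 0.21, with an adjusted p of 1.00 without the block and 0.0122 with it (0.0122 to 1.00 over 33 alternatives). Of 12 fits with the block that left out 1 library, 10 called it, and it was lost without T-N2G vehicle replicate 3 or mock vehicle replicate 2. Scarb2, the receptor that carries beta-glucocerebrosidase to lysosomes, had 70.0, 79.6 and 77.1 CPM in T-N2G DEM and 59.7, 68.5 and 65.3 CPM in T-N2G vehicle. In mock cells it had 64.6, 69.3 and 67.6 CPM with DEM and 62.0, 72.6 and 71.4 CPM with vehicle, so the DEM libraries were apart from vehicle in T-N2G cells and overlapped it in mock cells. The effects were 0.23 ± 0.08 in T-N2G cells and -0.03 ± 0.08 in mock cells, and their difference of 0.26 ± 0.11 had an adjusted p of 0.0265 with the block (0.0234 to 1.00 over 33 alternatives). With the block and 1 library left out that call held in 2 of 12 fits, those without mock DEM replicate 1 and without mock vehicle replicate 1, and the adjusted p reached 0.111 in the others. Lamp2 came next with the block, at an adjusted p of 0.0578 (0.25 ± 0.19 in the fit without it). Gaa and Hexa followed, each with an adjusted p of 0.0659 with the block.

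Next, T-N2G cells were set against mock cells in the treated state, a comparison that also includes any difference already present in vehicle. It shares its T-N2G DEM and mock DEM libraries with the comparisons above. None of the 34 genes was called in edgeR without the block, in either direction, against 2.61% of all genes called higher and 1.11% lower. DESeq2 and limma also called none of them. The median log2 fold change was 0.10 over the 34 genes and -0.0050 over all genes, with 24 positive values. It was 0.029 without T-N2G DEM replicate 3 (22 positive), 0.031 without mock DEM replicate 1 (21 positive) and 0.16 without T-N2G DEM replicate 1 (29 positive). With the block 11 genes were higher and 1, Atp6v0d1, was lower, against 10.3% and 9.32% of all genes. Of these, 1 higher and 1 lower gene stood among the 15 V-ATPase genes, and 10 higher genes among the 19 other tested genes. All 3 T-N2G libraries exceeded every mock library for Atp6v1c1, Ctsd, Ctsz and Scarb2, 4 of 34 genes, against 10.3% of all genes. All 3 same-numbered pairs were higher in T-N2G cells for 19 of the 34, against 23.8%.

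Ctsd had 413, 455 and 506 CPM in T-N2G DEM and 352, 382 and 404 CPM in mock DEM. The lowest T-N2G library stood above the highest mock library. Its log2 fold change was 0.27 ± 0.09 (1.21-fold), with an adjusted p of 0.177 without the block and 5.15e-05 with it (4.20e-05 to 0.584 over 34 alternatives). Lamp2, a membrane protein needed for the fusion of autophagosomes with lysosomes, had 514, 582 and 715 CPM in T-N2G DEM and 473, 501 and 543 CPM in mock DEM. Its groups overlapped because of T-N2G replicate 1, and the log2 fold change was 0.26 ± 0.14, with an adjusted p of 0.428 without the block and 0.000904 with it (0.000771 to 0.834 over 34 alternatives). For Gla the log2 fold change was 0.32 ± 0.15, with an adjusted p of 0.344 without the block and 0.00169 with it (0.00108 to 0.808 over 34 alternatives), and for Scarb2 it was 0.17 ± 0.08, with 0.344 and 0.00992 (0.00992 to 0.830 over 34 alternatives).

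The other genes higher with the block were Npc2, the soluble partner of Npc1, Ctsz, Ctsl, Gaa, which degrades glycogen, Psap, Neu1 and the V1 subunit Atp6v1c1. Their log2 fold changes lay between 0.11 (Psap) and 0.20 (Neu1 and Atp6v1c1). In the 12 fits with the block that left out 1 library, Ctsz was called in 9, Npc2 and Atp6v1c1 in 8 each, Ctsl in 6, Gaa in 5, and Psap and Neu1 in 3 each. The 3 for Psap were those without T-N2G vehicle replicate 3, mock vehicle replicate 1 or mock vehicle replicate 3, and for Neu1 those without mock DEM replicate 2, mock vehicle replicate 2 or mock vehicle replicate 3. By the same count Ctsd, Lamp2 and Gla were called in 12 of 12, and Scarb2 in 9. Atp6v0d1 had 85.8, 109 and 99.05 CPM in T-N2G DEM and 104, 116 and 105 CPM in mock DEM, lower in each of the 3 pairs although the groups overlapped. Its log2 fold change was -0.15 ± 0.10, with an adjusted p of 0.574 without the block and 0.0228 with it (0.0197 to 0.892 over 34 alternatives), and 10 of the 12 fits called it. The 3 genes with the firmest DEM effect had values near 0 here, at 0.06 ± 0.06 for Atp6v0b, -0.02 ± 0.08 for Mcoln1 and -0.02 ± 0.09 for Npc1.

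In vehicle, T-N2G over mock cells called none of the 34 genes in edgeR without the block, against 0.313% of all genes, and none with it, against 6.3%. DESeq2 and limma called none of the 34 in vehicle. The median log2 fold change was -0.04 over the 34 genes and -0.0015 over all genes, and 26 of the 34 values were negative. Its sign was not stable, since the median was 0.019 without T-N2G vehicle replicate 1 and 0.012 without mock vehicle replicate 3, with 14 negative values in each. It was -0.089 without T-N2G vehicle replicate 3 (28 negative) and -0.086 without mock vehicle replicate 1 (27 negative). All 3 pairs were lower in T-N2G cells for 12 of the 34 genes, against 21.7% of all genes. The libraries did not overlap for Atp6v1h, higher in T-N2G cells (5.11% of all genes), and for Atp6v1e1, lower in T-N2G cells (5.09% of all genes).

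The smallest adjusted p with the block in vehicle belonged to Atp6v0a1, at 55.0, 67.1 and 60.003 CPM in T-N2G vehicle and 65.2, 70.0 and 67.2 CPM in mock vehicle. It was lower in each pair while the groups overlapped, at -0.15 ± 0.09 on the log2 scale (adjusted p = 0.0667 with the block). Mcoln1 came next, with 25.2, 29.7 and 28.7 CPM in T-N2G vehicle and 28.7, 32.3 and 32.02 CPM in mock vehicle (log2 fold change -0.15 ± 0.08, adjusted p = 0.103 with the block). Atp6v1e1 had 34.6, 37.3 and 35.4 CPM in T-N2G vehicle and 39.0, 39.9 and 39.8 CPM in mock vehicle (log2 fold change -0.15 ± 0.07, adjusted p = 0.107 with the block). Atp6v0d1, with 69.2, 86.9 and 78.0 CPM in T-N2G vehicle and 78.3, 89.8 and 87.2 CPM in mock vehicle, had a log2 fold change of -0.12 ± 0.10 (adjusted p = 0.120 with the block).

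**Figure D4:**
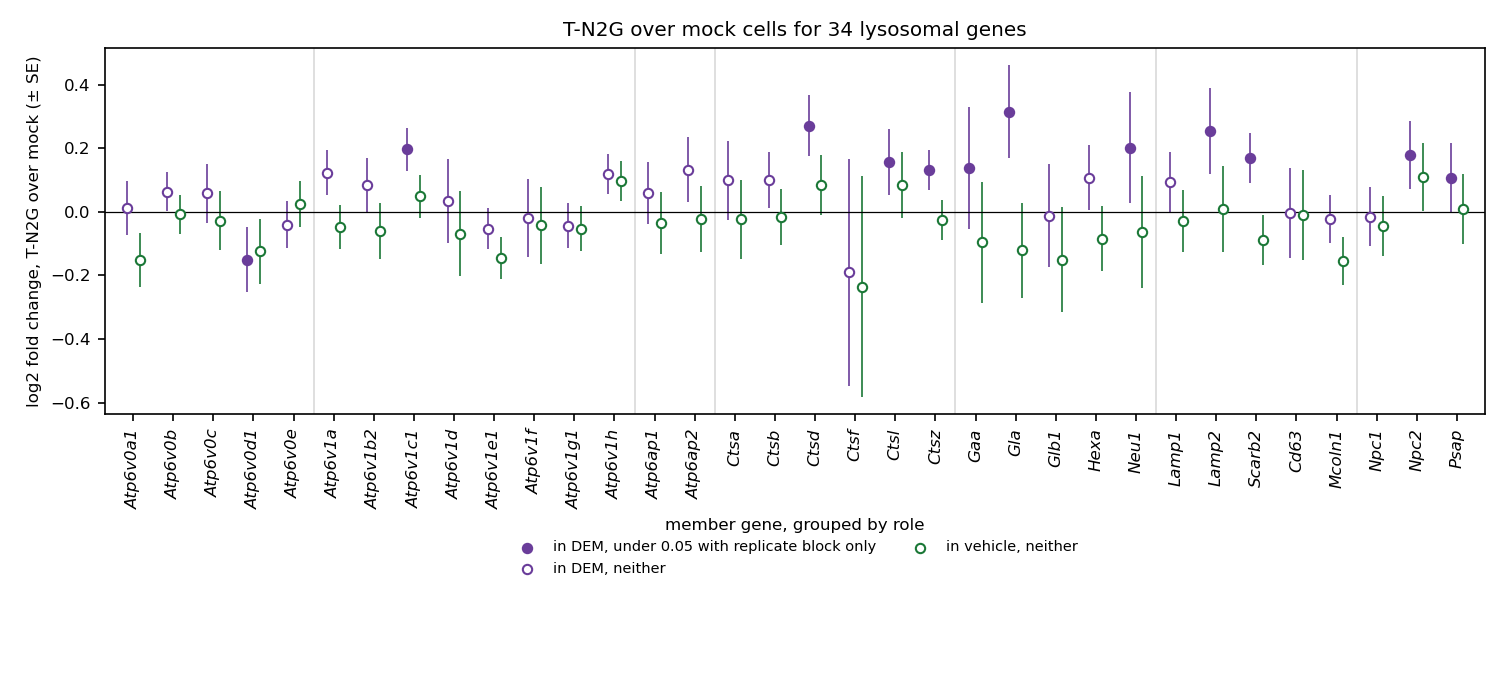
Log2 ratio of T-N2G to mock cells with its SE for the 34 tested genes, under DEM (purple, left of each pair) and in vehicle (green), with filled circles for genes called with the replicate block only and open circles for genes called with neither fit. Under DEM 24 of 34 values lie above 0 with a median of 0.10 (0.029 to 0.16 with 1 library left out), and in vehicle 26 lie below 0 with a median of -0.04 (-0.089 to 0.019).

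**Figure D5:**
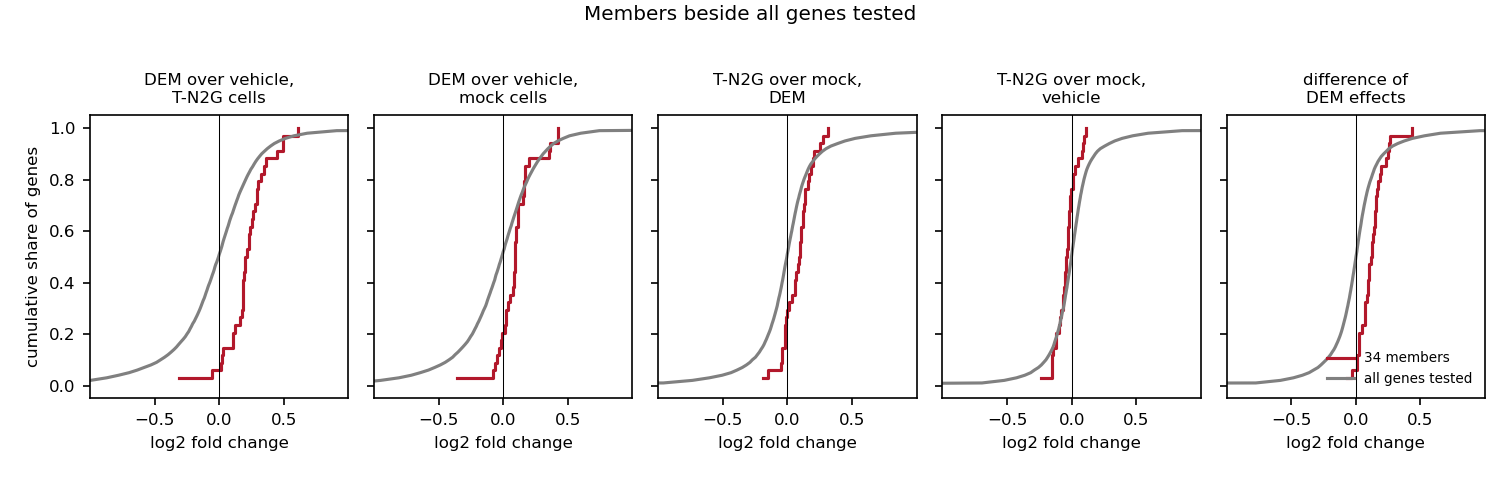
Cumulative share of genes by log2 fold change for the 34 lysosomal genes (red) and all 12469 tested genes (grey) in the 5 comparisons, drawn between -1 and 1. The medians are 0.21 against -0.0048 for DEM in T-N2G cells, 0.09 against -0.012 for DEM in mock cells, 0.10 against -0.0050 when T-N2G is set over mock cells under DEM, -0.04 against -0.0015 in vehicle, and 0.12 against 0.00099 for the difference of DEM effects.

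A wider list of 85 other lysosomal genes, 77 of them tested, gives the surroundings of the 36. Under DEM in T-N2G cells 10 of these 77 rose and 1 fell, against 10.1% of all genes called higher and 7.55% lower, so the number that rose was near the background. The largest rise was that of Tfe3, which encodes one of the factors that bind CLEAR elements, at 174, 163 and 187 CPM in T-N2G DEM and 90.3, 91.3 and 97.3 CPM in T-N2G vehicle. It rose 1.88-fold (log2 fold change 0.91 ± 0.07, adjusted p = 1.07e-05), against 1.31-fold in mock cells, which had 107, 108 and 112 CPM with DEM and 77.4, 85.1 and 87.2 CPM with vehicle. The difference of its DEM effects, 0.52 ± 0.09 on the log2 scale, was called without the block (adjusted p = 0.0311). The related factors Tfeb and Mitf did not share this pattern. Tfeb averaged 11.4 CPM in T-N2G DEM, 10.6 in T-N2G vehicle, 14.1 in mock DEM and 10.7 in mock vehicle. Mitf averaged 5.01, 5.89, 5.37 and 6.27 CPM in the same order. On the log2 scale Fnip1, part of a complex that acts on lysosomal Rag GTPases, rose by 0.54 ± 0.11 in T-N2G cells and by 0.42 ± 0.11 in mock cells. The Rag GTPase Rragc was called in T-N2G cells, at a log2 fold change of 0.36 ± 0.07. Lamtor5, a subunit of the Ragulator scaffold, fell by 0.29 ± 0.06 (log2 fold change -0.29).

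Among other pump genes, Tcirg1, a paralog of Atp6v0a1 that is abundant in osteoclasts, rose under DEM by 0.32 ± 0.07 on the log2 scale in T-N2G cells and by 0.33 ± 0.07 in mock cells. In mock cells 6 of the 77 genes rose, near the 7.76% of all genes, and 2 fell, against 6.18%, the sorting receptor Sort1 (log2 fold change -0.75 ± 0.18) and Lamtor5 (-0.33 ± 0.06). With the block the counts under DEM were 30 higher with 6 lower among T-N2G cells, against 22.8% and 22.2% of all genes, and 22 higher and 13 lower in mock cells, against 20.9% and 21.9%. T-N2G over mock cells under DEM called Tfe3 higher (log2 fold change 0.68 ± 0.07) and Naglu (-0.53 ± 0.12) and Tmem175 (-0.49 ± 0.10) lower, against 2.61% and 1.11% of all genes, and in vehicle none of the 77, against 0.313%. With the block these counts were 6 higher and 7 lower under DEM, near the 10.3% and 9.32% of all genes, and 1 higher and 6 lower in vehicle, against 6.3% of all genes in either direction. Naglu, an enzyme of heparan sulfate breakdown, had 12.6, 14.0 and 11.9 CPM in T-N2G DEM and 16.9, 17.4 and 21.1 CPM in mock DEM, and the groups did not overlap.

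Some values carry a limit from how fragments can be assigned. Glb1 overlaps Tmppe and had values that were not whole in all 12 libraries, Atp6v0c has a processed copy in the table (Atp6v0c-ps2) and 1 value that was not whole, and Ctsa, Ctsb, Ctsz, Hexa and Atp6v1b2 overlap other protein-coding genes. Npc1 overlaps the protein-coding gene Rmc1, a symbol that the deposited table does not hold. Atp6v0b, Atp6v1g1 and Lamp2 overlap genes of long noncoding RNA, also not in the table. The strand setting of the counting is not given in the sources used here, so the fragments of all these genes may include some of a neighbour's.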

How the data were processed

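Polyadenylated RNA was measured in 12 libraries, 4 groups of 3, prepared with a strand-specific kit per the labels. Per the submitters' processing notes the build was mm9, and the tools were TopHat2 2.0.8b, Cuffdiff 2.1.1 and bcl2fastq 2.16.0.10, with no role given. The deposited table gives each gene and library an estimated count of fragments, named raw fragments per the file headers, and the FPKM that the authors deposited (scaled by transcript length and library size). Of the values 98.3% were whole numbers (tolerance 0). Estimated counts were rounded to whole numbers. No genome of build mm9 was used, and promoter sequences and overlapping genes are from RefSeq (GRCm38.p6).

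In R 4.3.3 with edgeR 4.0.16, filterByExpr (minimum count 10, minimum total 15) kept 12469 genes and took out 11849. TMM factors were 0.980 to 1.028. The 12 libraries were fitted together by quasi-likelihood, 1 coefficient for each group, and the 5 contrasts had Benjamini-Hochberg adjustment over all tested genes. The common biological coefficient of variation was 0.110, and 0.0428 with the replicate block. Standard errors are approximate and come from the fit without the block. The median coefficient of variation of the 34 tested genes within a group was 10.0% in T-N2G DEM, 9.90% in T-N2G vehicle, 7.10% in mock DEM and 8.32% in mock vehicle.

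Replicate numbers come from the sample titles. Deviations of log2 CPM from group means correlated within the 18 same-numbered pairs of libraries (r 0.361 to 0.631), so the numbers pair the samples. In the 36 differently numbered pairs r was -0.422 to -0.00363. Deviations within a group sum to 0, which pulls these values below 0, so they add no separate evidence. Over the tested lysosomal genes the same-number r was 0.651 to 0.914.

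All 36 genes are accounted for. Values by library are given for genes called without the block in any comparison (up to 8 per comparison), for up to 4 with the smallest adjusted p with the block where fewer than 4 were called, and of the other lysosomal genes up to 4 per comparison and direction are named. The most and least abundant genes of each role were also given by library. Lamp1 was given as well, outside these rules. Hexa and Ctsf were given by library after their values were seen. The genes and lists were chosen with earlier results of these data known. Alternatives were the replicate block, DESeq2 1.42.0 and its size factors, limma 3.58.1 on log2(FPKM + 1) or log2(FPKM + 0.1), no filter, only the libraries compared, replicates 1 and 2 alone, and leaving out each library.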

Additional observations from a re-analysis of the deposited data

Results flagged for a closer look

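The DEM effect differed between T-N2G and mock cells for 2 of the 34 tested genes in a test of the difference itself, in edgeR with the replicate block and not without it. With the block 1.82% of all genes were called with a larger effect in T-N2G cells. For Gla the difference of log2 fold changes in that fit was 0.43, larger in T-N2G cells (adjusted p = 0.0122 with the block, 0.0122 to 1.00 over 33 alternatives), and 10 of 12 fits with the block and 1 library left out called it. Its DEM libraries were higher than their same-numbered vehicle libraries in 3 of 3 pairs in T-N2G cells and in 3 of 3 pairs in mock cells. For Scarb2 the difference was 0.26, larger in T-N2G cells (adjusted p = 0.0265 with the block, 0.0234 to 1.00 over 33 alternatives), and its DEM libraries were higher in 3 of 3 pairs in T-N2G cells and in 1 of 3 pairs in mock cells. That call held in 2 of 12 fits with the block and 1 library left out, where the adjusted p reached 0.111. No test for a library standing apart was run on groups of 3.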

How the results depend on the processing

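The replicate block changed the counts most. With it the number of the 34 genes called was 30 for DEM in T-N2G cells (8 without it), 14 for DEM in mock cells (4), 12 under DEM when T-N2G was set over mock cells (0), 2 for the difference of DEM effects (0) and 0 for T-N2G over mock cells in vehicle (0). Over all 12469 tested genes the block called 5615, 5339, 2445, 349 and 785 in the same order. The fit without it called 2195, 1737, 463, 54 and 39, so the block raised the counts over all genes as well. For DEM in mock cells the 14 stand beside 20.9% of all genes called higher and 21.9% called lower. Replicates 1 and 2 alone gave 1, 0, 0, 0 and 0 in the same order, and 26, 10, 5, 0 and 0 with the block. Of the 12525 genes tested there, 479, 124, 139, 6 and 6 were called, and 4640, 4362, 1581, 195 and 295 with the block. A fit of only the libraries compared gave 4 for DEM in T-N2G cells and 4 in mock cells, with 1342 of 12211 and 1139 of 12197 genes called. Leaving out 1 library gave 3 to 9 calls for DEM in T-N2G cells (23, 25, 26, 27, 28 or 29 with the block), 3 to 4 for DEM in mock cells (6, 8, 9, 11, 12, 13 or 14), 0 under DEM when T-N2G was set over mock cells (4, 5, 7, 9, 10, 11 or 12), 0 for the difference of DEM effects (0, 1, 2 or 3) and 0 in vehicle (0). The count of 12 dropped to 4 where T-N2G DEM replicate 2 or mock DEM replicate 3 was left out, to 5 without mock DEM replicate 1 and to 7 without T-N2G DEM replicate 3. The count of 8 dropped to 3 without T-N2G vehicle replicate 1, and to 4 or 5 where T-N2G DEM replicate 3 or 2 was left out. Over all genes the calls dropped there from 2195 to 1324, 1431 and 1695. The count of 14 dropped to 6 without mock vehicle replicate 2, 8 without mock DEM replicate 2, and 9 without mock DEM replicate 1 or mock vehicle replicate 3. Without mock vehicle replicate 2 the block called 4279 of all 12570 tested genes. In the other 3 of these fits it called 4525, 4470 and 4574, where the fit to all libraries called 5339. The count of 2 dropped to 0 without T-N2G vehicle replicate 3 or mock vehicle replicate 2 and to 1 without any of T-N2G DEM replicate 2, T-N2G vehicle replicates 1 and 2, mock DEM replicates 2 and 3 and mock vehicle replicate 3. Over all genes the 349 calls dropped to 267 and 211 in the fits with 0, and to between 258 and 330 in those with 1. DESeq2, its size factors, limma at either pseudocount and no filter on low counts gave 7 to 9 calls for DEM in T-N2G cells, 3 to 4 in mock cells and 0 elsewhere. Over all genes those fits called 1841 to 2462 for DEM in T-N2G cells and 1410 to 2097 in mock cells.

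Among the gene values called with or without the block, direction changed in 4 cases, in fits where the gene was not called. Values called with neither fit, all those in vehicle among them, were not followed one by one. The median of the 34 genes changed sign in vehicle only, where it lay between -0.089 and 0.019 over the fits without the block that left out 1 library, and replicates 1 and 2 alone gave 0.055 for T-N2G over mock cells given DEM. Over the fits that left out 1 library, Ctsa under DEM in T-N2G cells lay between -0.0095 (without T-N2G vehicle replicate 1) and 0.19, and Gaa in T-N2G over mock cells given DEM between -0.017 (without mock DEM replicate 1) and 0.25. Ctsf under DEM lay between -0.55 and 0.060 in T-N2G cells, the last without T-N2G vehicle replicate 2, and between -0.70 and 0.031 in mock cells, the last without mock vehicle replicate 2. Of the other values of those genes, 1421 kept their direction and side of the threshold, 499 passed it and 46 lost it. The causes were not tested. With 2 and 3 fragments in all, Ctsk and Ctss could not be tested, and the part of depth in the other values was not tested.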
